A study of Populus tremula x Populus alba with 6 samples.

Results

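The peaks described here are those at which the chromatin immunoprecipitation signal of the poplar factor PtrbHLH011 stood 10 or more times above the local background. They were taken from 2 deposited peak tables of the hybrid Populus tremula x Populus alba, 1 for the chromosomes of each parent species (its subgenomes), with each peak counted once. They were chosen by the fold enrichment column alone, which is the authors' own ratio of each peak's summit signal to the peak caller's local background. This ratio was 10 or more at 148 of 18975 P. alba peaks (0.780%) and at 107 of 17040 P. tremula peaks (0.628%), 255 of 36015 in all. The sum counts a site found in both lists once for each list. These 10-fold peaks were annotated to 143 P. alba and 104 P. tremula gene identifiers, 167 in either list.

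The study profiled mesophyll protoplasts, which are leaf cells without walls, that transiently expressed PtrbHLH011-10xMyc. Its 6 libraries are 3 anti-Myc immunoprecipitates and 3 inputs with no antibody, numbered as biological replicates 1 to 3 in each group. All 6 carry the tagged factor, so the groups hold no cells without it. The promoter that drove the construct and the iron supply of the cells are not stated in the labels. The tables hold no value for a single library, so library depth is unknown and no peak has an error between replicates.

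Basic helix-loop-helix (bHLH) proteins bind DNA as pairs, through their basic regions, at short E-box elements. In Arabidopsis, bHLH factors form much of the network that adjusts iron uptake and transport to supply, and Arabidopsis bHLH11 is known as a repressor in it. A ChIP-seq peak is a stretch where sheared fragments from the immunoprecipitate pile up. Its fold depends on the reads at the summit as much as on the reads taken as background. Fold, summit reads, background, p and length come from the same comparison as the choice of the peaks, and are given below as descriptions with no test. Gene position and the other subgenome's list are given as counts beside those of all peaks.

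The strongest peak in each list lay over the same gene, Potri.014G104800 on chromosome 14, and stood far from all others. Its P. alba copy spanned bases 8224506 to 8225967 and held 1347 summit reads, and its P. tremula copy spanned bases 8222290 to 8223741 and held 1299. Its folds of 677.7 and 655.0 were 16.2 and 8.44 times the next in the list. It began 187 bp inside the downstream edge of the gene on either subgenome, and ended 147 bp from the start of the gene on P. alba and 146 bp on P. tremula. The signal near this gene stood in a single strong peak. The 4 other P. alba and 3 other P. tremula peaks of this gene held 6 or 7 reads, and the nearest of them lay 295 and 292 bp upstream of the start. Reads from the introduced construct, whose sequence is not stated in the labels, cannot be told from chromosomal reads at this or any other peak. This single peak held 13.7% of the summed summit reads of the 10-fold peaks on P. alba and 19.3% on P. tremula. The mean fold of the 10-fold peaks was 17.22 and 19.2 with it and 12.7 and 13.2 without it.

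Of the 10-fold peaks, folds of 20 or more were found at 10 on P. alba (0.0527% of all peaks) and 6 on P. tremula (0.0352%), and 6 and 4 of these had their summit inside the assigned gene. On Potri.001G206900 on chromosome 1, the peak ran from 20692259 to 20693130 on P. alba, 82 bp inside its lower edge and 182 bp inside its upper one. It held 113 reads there at a fold of 40.0, and 111 reads at a fold of 36.5 on P. tremula. The gene is 1136 bp long on P. alba, and its 1 other P. alba peak held 5 reads 10516 bp upstream. No other P. tremula peak was annotated to it.

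Potri.003G022800 on chromosome 3 carried a pair of 10-fold peaks on each subgenome, all inside the gene. The P. alba pair, at 2703587 to 2704113 and 2704444 to 2704602, had folds of 22.7 and 21.8 with summits 571 bp apart. The P. tremula pair had folds of 19.9 and 24.1 with summits 540 bp apart. Summit reads were 69 and 61 on P. alba and 74 and 62 on P. tremula, so the members of each pair were alike in depth, and the order of the folds differed between the subgenomes.

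Potri.002G178700 on chromosome 2 had a 10-fold peak close to each of its ends on P. alba. The peak nearer the start, at 13810638 to 13810773, held 82 reads at a fold of 41.7. The peak nearer the end, at 13809522 to 13809600, held 79 reads at a fold of 37.1, and at 79 bp it was the shortest 10-fold P. alba peak. On P. tremula the only peak of this gene was the one at the start, with 39 reads and a fold of 20.2. The files pair neither these nor the other identifiers with gene names, so the remaining peaks are given by position.

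The other peaks of fold 20 or more lay upstream of genes or between them, except for the shared ones above. On chromosome 1 of P. alba, a summit of 58 reads and fold 29.7 (9188686 to 9188780) stood 1413 bp before the gene start. On chromosome 3 of P. tremula, a summit of 153 reads and fold 77.6 (8197694 to 8197775) stood 595 bp before the gene start. At 82 bp this peak was the shortest 10-fold peak on P. tremula, and no P. alba peak was annotated to its gene. A distal intergenic site on chromosome 7 was deeper on P. tremula (3910728 to 3910824), where 64 reads gave a fold of 32.7, than on P. alba (3911424 to 3911520), where 41 reads gave 21.1. A distal site on scaffold_289 was deeper on P. alba (13595 to 13681), with 48 reads and a fold of 24.6. Its P. tremula peak of 19 reads and fold 10.1 was the shallowest 10-fold peak. The last, a distal P. alba peak on chromosome 14 (16387411 to 16387698), reached a fold of 23.0 with 489 reads over a background of 20.3.

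Below these, folds fell off quickly. Folds of 10 to under 12 made up 94 of the P. alba and 66 of the P. tremula peaks, folds of 12 to under 15 another 38 and 27, and folds of 15 to under 20 only 6 and 8. Folds of 15 or more numbered 16 on P. alba (0.0843% of all peaks) and 14 on P. tremula (0.0822%), and a threshold of 8 would have taken 351 (1.85%) and 310 (1.82%). The median fold was 11.4 in each list, against 3.52 and 3.53 over all peaks. The 3 P. alba peaks just inside the threshold had folds of 10.0, 10.1 and 10.1 (350, 23 and 44 reads), and the 3 just outside had 9.97, 9.94 and 9.89 (55, 25 and 34 reads). On P. tremula the nearest inside had 10.0, 10.0 and 10.1 (62, 92 and 19 reads), and the nearest outside 9.96, 9.93 and 9.92 (25, 66 and 34 reads). With the summit count replaced by the lower end of its exact 95% Poisson interval, which covers counting error only, 28 P. alba and 23 P. tremula peaks kept a fold of 10 or more. With the upper end, 560 and 494 peaks reached it. At this depth most 10-fold peaks could not be told from peaks just under the threshold.

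**Figure D1:**
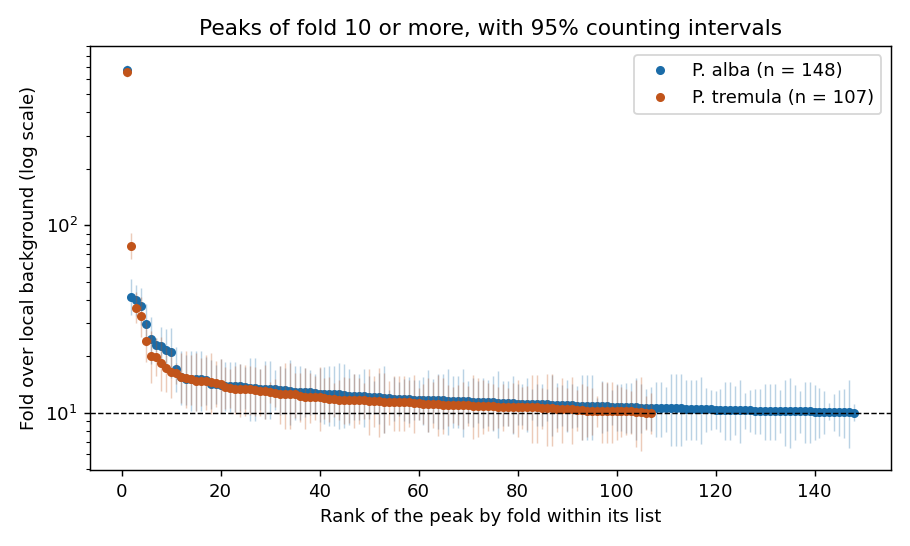
Fold over the local background (log axis) of every 10-fold peak against its rank in its list, for 148 P. alba and 107 P. tremula peaks. Points are the authors' folds, vertical lines the folds at the ends of the 95% Poisson interval of the summit count, and the dashed line the threshold of 10. The first peak of each list stands near 677.7 and 655.0, and most of the lines past the first 20 ranks reach below the threshold.

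The 10-fold peaks were moderately deep, and the share of peaks that reached the threshold was highest at 50 to 99 reads. The median summit held 43.5 P. alba reads, with quartiles of 31 and 59, and 45 P. tremula reads, with quartiles of 32.5 and 60.5, where the median over all peaks was 7 in each list. At the lowest background of the list, which was 0.989 reads (P. alba) and 0.985 reads (P. tremula), at least 19 reads are needed for a fold of 10. None of the 16832 P. alba and 14962 P. tremula peaks of 5 to 18 reads could therefore be chosen. Of the peaks of 20 to 49 reads, 86 of 1293 on P. alba (6.65%) and 63 of 1228 on P. tremula (5.13%) had a fold of 10 or more. The share was 15.7% and 10.7% at 50 to 99 reads, 3.19% and 4.59% at 100 to under 200 reads, and 1.81% and 0.938% from 200 reads on. Over all peaks it was 0.780% and 0.628%, which include the shallow peaks that could not be chosen.

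Only 9 P. alba and 8 P. tremula 10-fold peaks had 100 reads or more. Apart from the peaks over Potri.014G104800 and Potri.001G206900 and the P. tremula peak on chromosome 3, these lay over raised backgrounds. On P. alba the highest background was 34.8 reads, at a distal peak on scaffold_37 (247469 to 247613) with 362 reads and a fold of 10.1. On P. tremula it was 16.7 reads, at a peak on chromosome 12 (7074808 to 7075012) with 227 reads and a fold of 12.9. The background was at its lowest value in the list, within 0.01 reads, at 17 of the 148 in the P. alba list (11.5%, exact 95% interval 6.84 to 17.8%), and 11 of the 107 in the P. tremula list (10.3%, 5.24 to 17.7%). Over all peaks it was so at 58.9% and 56.7%. The median background of the 10-fold peaks was 2.37 and 2.42 reads, and that of the other peaks of 20 to 99 reads was 6.46 and 6.47.

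**Figure D2:**
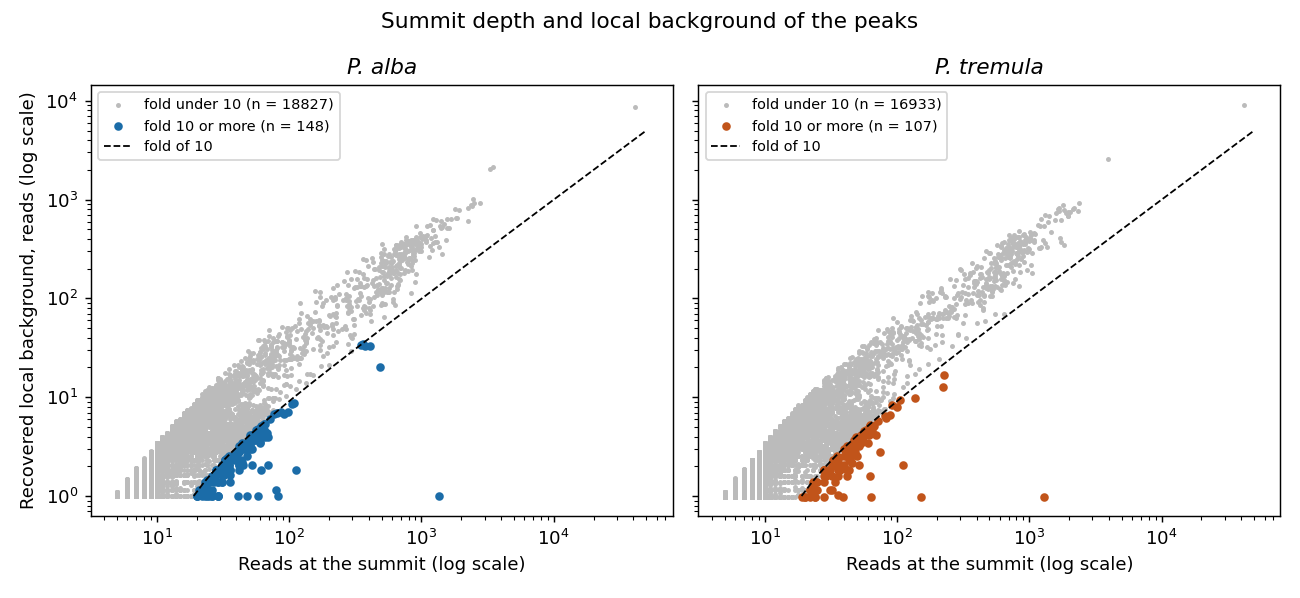
Local background recovered from each peak (reads, log axis) against the reads at its summit (log axis), for P. alba on the left and P. tremula on the right. Grey points are peaks of fold under 10, coloured points the 148 and 107 peaks of fold 10 or more, and the dashed line marks a fold of 10. The coloured points begin at 20 and 19 reads, and the 1347- and 1299-read peaks stand alone at the lowest background.

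The 10-fold peaks were longer than the typical peak. The median length was 215.5 bp on P. alba, with quartiles of 152 and 319 bp. On P. tremula it was 201 bp, with quartiles of 162 and 285.5 bp. These compare with 124 and 128 bp over all peaks and 187 and 186 bp at the other peaks of 20 to 99 reads. The longest on P. alba was 1964 bp, on chromosome 15 (6316313 to 6318276), where it covered a gene of 540 bp whole at a fold of 10.3. On P. tremula the longest was the peak over Potri.014G104800, of 1452 bp. At the lowest background the median length was 102 bp on P. alba and 97 bp on P. tremula, against 220 and 205 bp at the other 10-fold peaks. Long peaks occurred there too: the peaks over Potri.014G104800 and a pair on chromosome 19, of 500 bp on P. alba (from 10878478) and 527 bp on P. tremula (from 10876493), were at the lowest background. Over the 10-fold peaks of a list, Spearman's rho between length and summit reads was 0.50 (n = 148) and 0.43 (n = 107), a description over peaks that share the same libraries.

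By the authors' annotation, the promoter class, which reaches 3 kb to either side of a start, held 86 of the 148 in the P. alba list (58.1%, 49.7 to 66.2%), and 66 of the 107 in the P. tremula list (61.7%, 51.8 to 70.9%). The shares over all peaks, 60.6% and 60.9%, lay inside these intervals. Distal intergenic peaks numbered 49 (33.1%, 25.6 to 41.3%) and 32 (29.9%, 21.4 to 39.5%), against 26.99% and 26.9% over all peaks. Peaks downstream of genes numbered 10 (6.76%, 3.29 to 12.1%) and 6 (5.61%, 2.09 to 11.8%), against 2.97% and 2.93%. A second comparison kept to a band of depth. Among peaks of 20 to 99 reads, 57.6% of the 10-fold P. alba peaks and 61.2% of those on P. tremula were in the promoter class, against 37.4% and 38.2% of the peaks of lower fold. Distal peaks made up 33.1% and 29.6% of the former and 57.5% and 56.3% of the latter. Depth was not equal within this band, with median summits of 42 and 42.5 reads at the 10-fold peaks and 31 and 32 at the others, and the background, which enters the fold, was higher at the others. The part of neither was tested. Peaks of fold 5 to under 10 at any depth lay between, with 52.8% and 54.02% in the promoter class and 40% and 38.7% distal. The class of a peak and its gene identifier can refer to different genes, because some downstream peaks lay upstream of the gene they were assigned to.

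No 10-fold peak was in the exon class, which holds exons outside the promoter class. That is 0 of 148 on P. alba (upper exact limit 2.46%) and 0 of 107 on P. tremula (3.39%), where all peaks had 5.60% and 5.52%. Exon peaks were also few among the other peaks of 20 to 99 reads, at 5 of 1491 and 5 of 1457, so that depth moves with this count. Its part in it was not tested. Introns outside the promoter class held 3 peaks in each list (2.03%, 0.420 to 5.81%, and 2.80%, 0.582 to 7.98%). The shares over all peaks, 3.81% and 3.76%, lay inside these intervals. The 3 peaks were the same sites in both lists, each numbered as the last intron. The chromosome 2 site, intron 15 of 15 (21909402 to 21909562 on P. alba), had 42 and 43 reads and folds of 13.97 and 13.3. The chromosome 5 site, intron 3 of 3 (21851235 to 21851414), had 29 reads on each subgenome and folds of 12.6 and 11.5. The chromosome 10 site, intron 5 of 5 (387164 to 387466), had 47 reads on each and folds of 10.8 in both lists. The first 2 of these summits lay past the end of the gene they were assigned to, so the intron numbers need not refer to that gene.

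Summits of the 10-fold peaks lay outside the body of their assigned gene more often than inside it. Inside were 28 P. alba summits (18.9%, 13.0 to 26.2%) and 23 P. tremula summits (21.5%, 14.1 to 30.5%), where all peaks had 37.9% and 37.5%. Among the other peaks of 20 to 99 reads the share was lower still, at 12.1% and 12.2%. Summits upstream of the start numbered 74 (50%) and 47 (43.9%), where all peaks had 40.5% and 41.0% and the other peaks of 20 to 99 reads 50.03% and 50.4%. Those past the gene end numbered 46 (31.1%) and 37 (34.6%), where all peaks had 21.6% and 21.4% and the other peaks of 20 to 99 reads 37.8% and 37.3%. Within 250 bp of a start lay 15 (10.1%, 5.78 to 16.2%) and 10 summits (9.35%, 4.57 to 16.5%), intervals that include the shares of 11.8% and 11.9% over all peaks but not those of 4.36% and 4.39% at the other peaks of 20 to 99 reads. Within the promoter class, 43 P. alba summits were upstream, 27 inside the gene and 16 past its end, and on P. tremula these numbers were 32, 22 and 12. As shares of all 10-fold peaks the P. alba counts are 29.1%, 18.2% and 10.8%, where the whole P. alba list had 23.2%, 31.01% and 6.46%, so that inside positions led in the whole list and upstream ones here. On P. tremula they are 29.9%, 20.6% and 11.2%, against 23.6%, 30.8% and 6.45%. Upstream positions also led among the other peaks of 20 to 99 reads. Their shares were 18.9%, 10.6% and 7.85% on P. alba and 19.1%, 10.7% and 8.37% on P. tremula.

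Among the 10-fold peaks themselves, the share inside genes was higher at higher folds. Inside the gene lay 6 of the 10 P. alba summits of fold 20 or more and 4 of the 6 on P. tremula, and at folds of 15 or more 8 of 16 and 8 of 14. At folds of 10 to under 15 the counts were 20 of 132 (15.2%, 9.51 to 22.4%) and 15 of 93 (16.1%, 9.32 to 25.2%). Several of the former share a gene, as at Potri.003G022800, so these counts rest on few genes. Distal peaks made up 34.8% and 33.3% at folds of 10 to under 15, 3 of 16 and 1 of 14 at 15 or more, and 3 of 10 and 1 of 6 at 20 or more, so that no steady fall with the fold was seen. Peaks over 10 kb from a start numbered 22 on P. alba (14.9%) and 11 on P. tremula (10.3%), against 10.4% and 10.5% of all peaks. The other peaks of 20 to 99 reads had 31.6% and 30.7%. All of these 22 and 11 were under a fold of 15, as were 132 and 93 of all 10-fold peaks.

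**Figure D3:**
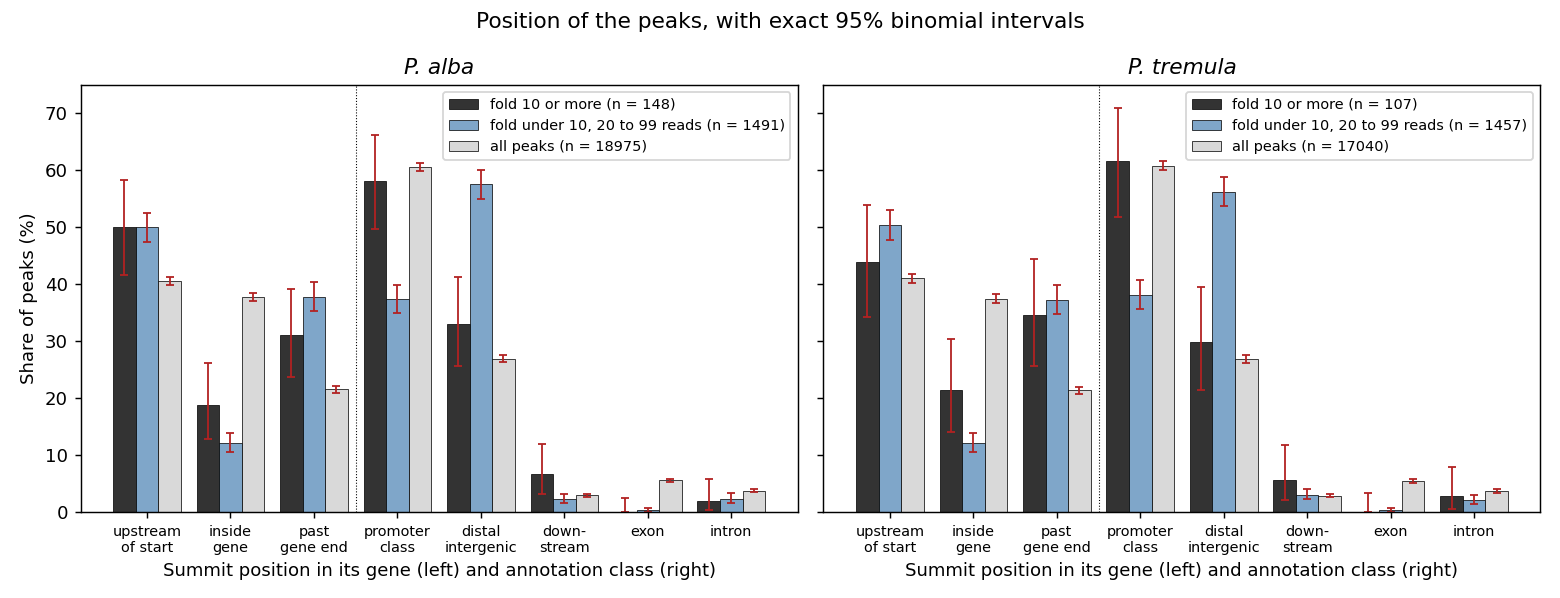
Share of peaks (%) by where the summit lies in its assigned gene (left of the dotted line) and by the authors' annotation class (right of it), for P. alba and P. tremula. Black bars are the 10-fold peaks, blue bars the other peaks of 20 to 99 reads, grey bars all peaks, and red lines exact 95% binomial intervals. Inside genes the black bars stand at 18.9% and 21.5% against 37.9% and 37.5% for all peaks, and at distal sites the blue bars stand highest, at 57.5% and 56.3%.

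The genes assigned to 10-fold peaks were short. Counted by peak, the median gene length was 1633 bp on P. alba and 1602 bp on P. tremula, against 2560 and 2552 bp over all peaks. Genes under 1000 bp took 30.4% (23.1 to 38.5%) and 29.0% (20.6 to 38.5%) of the 10-fold peaks, against 18.3% and 18.6% of all. Among the other peaks of 20 to 99 reads the medians were 1602 and 1604 bp, close to those of the 10-fold peaks.

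More than 50% of the assigned gene was covered by 10 peaks in the P. alba list (6.76%, 3.29 to 12.1%), and by 7 in the P. tremula list (6.54%, 2.67 to 13.0%), where all peaks had 0.601% and 0.563%. The other peaks of 20 to 99 reads had 2.08% and 2.33%, and peaks of fold 5 to under 10 had 2.55% and 2.36%. Of these, 8 and 5 lay on genes under 700 bp. A gene of 314 bp on chromosome 2 was covered to 97.5% in both lists, by a P. alba peak at 14234988 to 14235293 with 68 reads and a fold of 12.8, and by a P. tremula peak with 67 reads and a fold of 11.2. A gene of 382 bp on scaffold_75 was covered to 85.1% in both, with 61 reads and folds of 11.0 and 11.1. Only Potri.014G104800 and Potri.001G206900 were over 700 bp long. Since length belongs to the measures that move with the fold, the higher share is a description.

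Genes with a 10-fold peak often had further peaks. Of the 143 P. alba genes, 76 (53.1%, 44.6 to 61.5%) had 2 or more peaks of any fold in their own list, against 28.1% of all P. alba genes with a peak. On P. tremula the count was 50 of 104 (48.1%, 38.2 to 58.1%), against 25.6%. A gene with more peaks has more chances to hold a 10-fold one, while the shares over all genes count each gene once. The higher shares therefore follow in part from the choice, and how much was not tested. A second 10-fold peak was rarer and was found at 5 P. alba and 3 P. tremula genes, of which Potri.003G022800 and a gene on chromosome 5 had one on each subgenome. The chromosome 5 pair lay 2138 bp apart on P. alba, with folds of 13.0 and 12.6, and 2148 bp apart on P. tremula, with folds of 11.1 and 11.5. A chromosome 8 gene had a pair on P. tremula, with folds of 15.3 and 18.4 and 32 and 36 reads. On P. alba the same gene had 1 peak of 98 reads and fold 12.1 over a background of 7.16 reads.

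Across chromosomes the 10-fold peaks were spread thinly and unevenly. Chromosome 14 held 14 on P. alba (1.44% of its peaks) and 13 on P. tremula (1.57%), the highest shares among the 19 chromosomes in each list. Unplaced scaffolds held 14 (1.57%) and 15 (1.82%), which is 9.46% (5.27 to 15.4%) and 14.02% (8.06 to 22.1%) of the 10-fold peaks against 4.70% and 4.82% of all peaks. The other peaks of 20 to 99 reads lay there at 12.6% and 13.0%, values inside these intervals. Chromosome 16 held 1 in each list (0.16% and 0.188% of its peaks). Chromosome 1 differed between the lists, with 18 on P. alba (0.815% of its peaks) and 5 on P. tremula (0.251%). The whole lists had 0.780% and 0.628%, so the P. alba share was near that of its list and the P. tremula share was lower. Of those 18, 5 had a P. tremula partner of fold 10 or more and 11 a partner between 5.04 and 9.90 with a median of 9.22, so most of the gap on this chromosome lay close to the threshold.

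Some of the chromosome 14 peaks lay close together, while 10 in each list lay elsewhere on the chromosome. Between 16318807 and 16446459 on P. alba lay 4 of them among 16 peaks of any fold, 8 of which had 100 reads or more. Between 16234948 and 16442439 on P. tremula lay 3 among 21, 9 of which had 100 reads or more. The folds of these 4 and 3 peaks ran from 12.003 to 23.0 and from 10.2 to 16.3. Their backgrounds ran from the lowest value of the list upward, at 0.989 to 33.2 and 0.985 to 12.6 reads. Another P. tremula run of 3 lay on chromosome 5 between 10757786 and 10973592. Within the first 100 kb of a chromosome lay 4 in the P. alba list (2.70%, 0.741 to 6.78%), and 3 in the P. tremula list (2.80%, 0.582 to 7.98%), against 0.522% and 0.469% of all peaks. They were on chromosomes 2 and 15, and 1 P. alba peak on chromosome 12, and the one nearest a chromosome end began at base 7856 of chromosome 15 on P. alba (69 reads, fold 14.2) and at base 7804 on P. tremula (69 reads, fold 13.6).

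Agreement between the subgenomes was first counted by gene identifier. A 10-fold peak in both lists was found at 80 genes, which is 55.9% of the 143 P. alba genes and 76.9% of the 104 P. tremula genes. Of the P. alba genes 136 (95.1%, 90.2 to 98.0%) had a peak of any fold on P. tremula, and of the P. tremula genes 102 (98.1%, 93.2 to 99.8%) had one on P. alba. Over all genes with a peak these shares were 81.9% and 87.9%. Counted by peak, 95.3% and 98.1% of the 10-fold peaks had a peak of their gene in the other list, against 92.4% and 93.3% of the other peaks of 20 to 99 reads. The lists come from the same libraries, and how reads were assigned to the subgenomes is not given. Whether the same reads were counted in both lists cannot be told, so these counts are not a replication.

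Only 7 P. alba genes and 2 P. tremula genes with a 10-fold peak had no peak at all in the other list. The P. alba peaks had folds of 10.0 to 13.4. They included a peak of 350 reads over a background of 33.9 on chromosome 5 (14790275 to 14790530) and a peak of 105 reads over 8.54 on the same chromosome (10675625 to 10676155). The 2 on P. tremula were the 77.6-fold peak on chromosome 3 and a peak of fold 10.8 on scaffold_570 (12911 to 13232), with its summit 6 bp from the start of a gene. A gene without a listed peak can still have signal under the caller's threshold.

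By position, peaks were paired when they had the same gene identifier and summits at the same distance from its start, to within 100 bp. A partner was found for 123 of the 148 in the P. alba list (83.1%, 76.1 to 88.8%), and 96 of the 107 in the P. tremula list (89.7%, 82.3 to 94.8%), against 66.3% and 73.8% of all peaks. Peaks of fold 5 to under 10 had a partner at 74.2% and 78.8%, and the other peaks of 20 to 99 reads at 59.5% and 62.7%. The 140 pairs fell into 79 with a fold of 10 or more in both lists, 44 with it on P. alba only and 17 with it on P. tremula only. In the 79 shared pairs the log2 ratio of the folds, P. alba over P. tremula, had a median of 0.01 and an SD over pairs of 0.24. A ratio beyond 1.5 times was seen in 3 of them. Both folds of these pairs were chosen to be 10 or more, and most 10-fold peaks lie under 15, so the choice itself holds these ratios near equality. Within these pairs the summit distances from the gene start differed by a median of 9 bp, and 38 had peaks of identical length.

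In the pairs above the threshold in 1 list only, the other fold lay below it by varying amounts. On P. tremula, the partners of the 44 P. alba peaks had a median fold of 9.04, 30 of them at 8 or more, 10 at 5 to under 8, and 4 under 5. The P. alba partners of the 17 P. tremula peaks had a median of 7.69, with 7, 8 and 2 in these ranges. Because 1 side of each such pair was chosen for a high fold, a lower value on the other side follows in part from the choice.

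**Figure D4:**
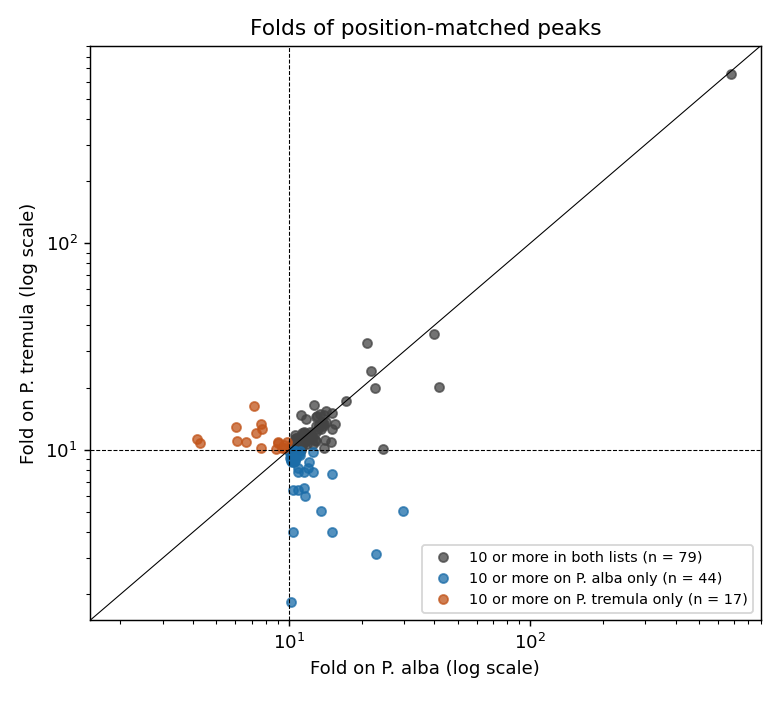
Fold on P. tremula against fold on P. alba (log axes) for the 140 position-matched pairs with a fold of 10 or more in either list. Grey points reach 10 in both lists (79 pairs), blue points on P. alba only (44) and orange points on P. tremula only (17), and the solid line marks equal folds. Most points lie along the line near 10, and the pair over Potri.014G104800 stands alone at the upper right.

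Of the 140 pairs 12 differed by more than 2 times, and all but 1 of them took 2 forms. In the first, summit reads differed while both backgrounds stood at the lowest value of their lists. That value was shared by 58.9% of all P. alba and 56.7% of all P. tremula peaks. Equal backgrounds at it therefore need not mean equal surroundings. The chromosome 1 peak of fold 29.7 on P. alba had 58 reads and its P. tremula partner 9 (fold 5.04). A chromosome 9 peak at a gene start had 29 reads on P. alba (6370323 to 6370457, fold 15.1) and 7 on P. tremula (fold 4.03). Together with the scaffold_289 pair and the start peak of Potri.002G178700, these were the 4 of the 12 pairs with the lowest background on both sides. In each of these 4, P. alba had the more reads. Further pairs at the lowest background on both sides differed by less than 2 times. Some of those had more reads on P. tremula, such as the chromosome 7 pair with 41 on P. alba and 64 on P. tremula.

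In the second form, of 7 pairs, the background differed more than the summit reads. The chromosome 14 peak with 489 reads and a background of 20.3 on P. alba had a partner with 564 reads and a background of 179.2 on P. tremula, where the fold was 3.14 against 23.0. The gene had another P. tremula peak further upstream (16382848 to 16383029) whose fold was 10.2. A distal chromosome 4 site had 58 reads on P. alba (9470380 to 9470598, fold 10.2) and 41 on P. tremula over a background of 21.8 (fold 1.84). A chromosome 12 peak near the chromosome start had 26 reads over the lowest background on P. alba (66220 to 66510, fold 13.6), and its partner had 168 reads over 32.4 (fold 5.06). There the subgenome with fewer reads had the higher fold. In the reverse direction, a scaffold_23 peak had 72 reads over 5.77 on P. tremula (376135 to 376290, fold 10.8) against 441 reads over 102.5 on P. alba (fold 4.27). A distal chromosome 5 peak had 100 reads over 7.98 on P. tremula (10838121 to 10838312, fold 11.2) against 83 over 19.2 on P. alba (fold 4.17).

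The log2 ratio of the folds is the sum of a part from summit reads and a part from background. The background part was the greater in size in 58 of the 79 shared pairs, in 34 of the 44 pairs above 10 on P. alba only and in 14 of the 17 on P. tremula only. These counts include the pairs with identical summit reads, in which the part from reads is 0 by construction. In the pairs with differing reads the background part was the greater in 20 of 41 shared pairs, in 17 of 27 on P. alba only and in 11 of 14 on P. tremula only. Of the 12 pairs that differed by more than 2 times, it was the greater in 7. Summit reads were identical in 58 of the 140 pairs (41.4%), against 76.6% of the 12576 pairs in the whole lists. These shares are not like for like, because the median summit over all peaks held 7 reads and equal counts are more likely at low depth. Whether equal counts are the same reads was not tested. Identical counts were found in 38 of the 79 shared pairs (48.1%), 17 of the 44 (38.6%) and 3 of the 17 (17.6%).

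**Figure D5:**
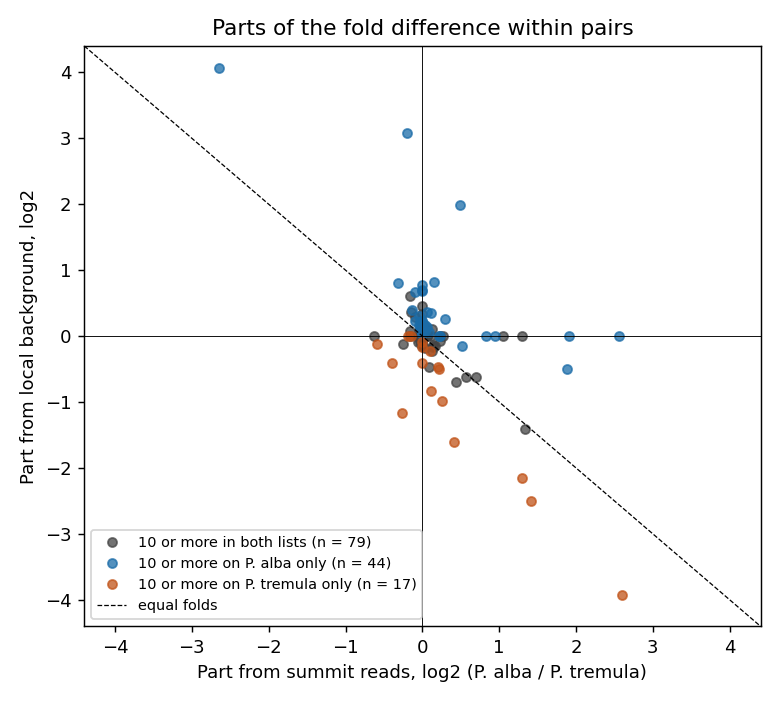
For the same 140 pairs, the part of the log2 fold ratio (P. alba over P. tremula) that comes from summit reads (horizontal) and from local background (vertical, positive where the P. alba background is lower). Colours are as above, and points on the dashed line have equal folds. Points far along the vertical axis differ mainly by background, and 4 pairs with the lowest background on both sides differ by more than 2 times along the horizontal axis alone.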

How the data were processed

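Peaks were analysed from 2 tables, 1 per subgenome, of a study with 3 ChIP and 3 input libraries. The submitters' processing notes list ChIPseeker 1.18.0, MACS2 2.2.7.1 and BWA 0.7.17.2 without roles, and the deposited peak names show a duplicate-marking step. Genome build, annotation release, calling options and pooling are stated neither in the labels nor in the headers, and all peak names carry 1 tag that matches no library label. Per the file headers, each peak has a pileup (a coverage signal, the reads over the summit), a fold ratio over local background, a −log10 p-value, its length, an annotation class and a gene. These values are the authors' own.

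Each peak stands in 2 rows and was counted once (37950 and 34080 deposited rows). The background was recovered as (pileup + 1) / fold − 1. Its Poisson tail matched the deposited −log10 p-value to within 0.01 for 146 of 148 and 106 of 107 peaks of fold 10 or more. Summit distances were computed from the tables' gene coordinates. Pairs were formed within 100 bp, closest first, with each peak used once. This step was checked on a copy of the P. alba list with some peaks dropped and summits moved by less than this limit. Such a copy could not show false pairs between differing gene models. Shares have exact (Clopper-Pearson) 95% intervals, which treat peaks as independent and cover counting error only. No test was made: peaks are not replicates, and the tables hold no value per library, so the planned ChIP against input comparison was not made. No genome or gene name table was used, so no sequence, motif or gene list is reported, and at most 4 identifiers are printed. Peaks named were those of fold 20 or more, the extremes of length, depth and background, those at the threshold, the pairs that differ most and the genes with several 10-fold peaks. Further ones were chosen after their values were seen, namely intron, gene-covering and chromosome-end peaks. The peaks and lists were chosen with earlier results of these data known. Python 3.11.15, pandas 2.3.3 and scipy 1.17.1 were used.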

Additional observations from a re-analysis of the deposited data

How the results depend on the processing

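Of 89 alternative values, 53 stayed within the limits set (1.5 times for counts, the exact interval for shares, the quartiles for medians) and 36 moved. Counts depended on the threshold. A fold of 8 or more took 351 (P. alba, 1.85%) and 310 (P. tremula, 1.82%) peaks and 220 genes shared between the lists, with shares and medians within the limits. At a fold of 15 or more there were 16 (0.0843%) and 14 (0.0822%), with 7 shared genes. At 15 or more the promoter shares were 75% and 85.7%, distal shares 18.8% and 7.14%, and shares at the lowest background 50% and 28.6%. There, genes with a peak in the other list made up 100% and 91.7%, paired peaks 93.8% and 78.6%, and pairs above the threshold in both lists 44.4%. On P. alba the share within 250 bp of a start was then 18.8% and the median length 135.5 bp. With the lower Poisson limit at 10 or more, an alternative chosen after seeing the data, 28 and 23 peaks were left, with 67.9% and 78.3% in promoters and 21.4% and 8.70% distal. Promoters within 1 kb held 27.7% and 28.0%, and within 2 kb 47.3% and 47.7%. With 500 bp as the limit around gene starts the shares were 16.2% and 16.8%. By promoter peaks alone 50 genes were shared. A promoter peak in the other list was found at 61.5% and 69.2% of all genes with a 10-fold peak of any class. Of the 82 P. alba genes with a 10-fold promoter peak, 76 (92.7%) had one. Over all P. alba genes with a promoter peak the share was 80.9%. Pairing within 50 bp gave 75.7% and 81.3%. The 19 chromosomes alone, 20 reads or more, a background tolerance of 0.1 reads and pairing within 200 bp moved no value past the limits. Fewer or more peaks follow from the thresholds themselves, and why the shares moved was not tested. No paired analysis was possible because values of single libraries are not in these tables, and no replicate could be left out for the same reason. Summit counts limit precision: most folds between 10 and 15 rest on 20 to 99 reads.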
